A study of Saccharomyces cerevisiae with 15 samples.

Results

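The messenger RNAs of 42 genes of amino acid synthesis were followed in budding yeast exposed to the rare earth metals lanthanum (La) and ytterbium (Yb). They were GCN4, which encodes the activator of the general amino acid control, and enzymes of 6 pathways: 6 genes for histidine, 9 for arginine, 7 for lysine, 9 for the branched-chain amino acids, 8 for the aromatic amino acids and 2 that open the aspartate family. They were taken from the 6600 genes of the normalized count table by systematic name. Every one of the 42 reached the mean of 10 normalized counts asked of a tested gene, as did 5567 genes in all.

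The cells were the laboratory strain BY4741, grown in YNB medium with β-glycerophosphate and exposed for 1 h. A control group without metal (Ctrl) was compared with 50 µM La (La_EC10), 160 µM La (La_EC50), 6 µM Yb (Yb_EC10) and 8 µM Yb (Yb_EC50), with 3 libraries in each of the 5 groups. The labels call the paired concentrations of each metal its EC10 and EC50, so the metals are matched by effect and not by concentration; the effect behind these terms is not given in the sources used here. Libraries are named below by the running number of their column: 1 to 3 are controls, 4 to 6 Yb_EC50, 7 to 9 Yb_EC10, 10 to 12 La_EC50 and 13 to 15 La_EC10, and values are listed in that order within a group. Where 4 changes from control follow each other, their order is La_EC10, La_EC50, Yb_EC10 and Yb_EC50, and ± is the SE of a log2 change unless SD is named.

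The libraries held 5629666 to 7183175 reads in genes, and 3 reads, the limit of detection used here, were worth 2.70 to 3.67 normalized counts. BY4741 is a haploid of mating type a that lacks LEU2, URA3 and MET17 and carries a partial deletion of HIS3. All 15 libraries matched this in mating type and in LEU2, URA3 and MET17. The deletion in HIS3 could not be seen in these counts, since HIS3 held 350 to 507 normalized counts over the libraries. URA3 and MET17 had no read, LEU2 had 1 read in library 7 and none elsewhere, and no library had over 11.7 normalized counts of MF(ALPHA)1, the gene of the α pheromone, against 5775 for the a-cell receptor gene STE2 in controls. The other α-cell gene looked at, STE3, was not silent. It held 47.4 to 79.6 normalized counts over the 15 libraries, above the limit of detection and far below STE2. STE2, MFA2 and BAR1, all a-cell genes, were themselves lower in each exposure, with log2 changes from -1.25 to -0.35 in BAR1, and their part in what follows was not tested. By the genotype of the strain, the leucine and histidine pathways described below each lack a working enzyme, in controls and exposed groups alike. The cells depend on supplied leucine, histidine, methionine and uracil.

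Gcn4 is a transcription factor that raises enzyme genes of many amino acid pathways at once when amino acids run short. Its own abundance is set mainly in translation: upstream reading frames in the GCN4 leader keep ribosomes from the coding region until the kinase Gcn2 senses uncharged tRNA and phosphorylates the initiation factor eIF2, so the GCN4 mRNA level need not follow the protein. Most pathways also have a switch of their own, such as Leu3, which activates branched-chain genes when α-isopropylmalate accumulates, Lys14, which does so for lysine genes with an intermediate of that pathway, and the Arg80, Arg81 and Mcm1 complex, which represses arginine synthesis genes when arginine is plentiful.

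Matches to the binding sites of these switches are shown here for the genes that the results below turn on. The 500 bases before each start codon were searched on both strands of the R64 genome. The Gcn4 site TGACTCA lay in 27 of the 42 promoters, against 4.21% of 5487 promoters of tested genes, and its core TGACTC, which every TGACTCA contains and which the factor Bas1 also binds, lay in 31, against 13.1%. All 9 arginine genes and both aspartate family genes had the core, as did 5 of 6 histidine, 7 of 9 branched-chain, 5 of 8 aromatic and 3 of 7 lysine genes, and GCN4 did not. In the following 30-base stretches, read on the strand of the gene, capitals mark the Gcn4 site; they lie at chrIII:68514-68543 for HIS4, chrVII:478935-478964 for LEU1, chrXV:218855-218884 for ARG1 and chrX:268474-268503 for ARG3.
HIS4: cccatgcacagTGACTCAcgtttttttatc
LEU1: attactctagaTGACTCAgtttagtctgac
ARG1: tgattttttagTGACTCAtgtcgcatttgg
ARG3: gggtcacgtcgTGACTCAtatgctttcttg

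The HIS4 promoter holds 3 cores within a short distance. A stretch of 200 bases that begins 300 bases before the start codon, on the minus strand at chrIII:68434-68633, is shown with the cores in capitals, the last of them being the full site above.
HIS4: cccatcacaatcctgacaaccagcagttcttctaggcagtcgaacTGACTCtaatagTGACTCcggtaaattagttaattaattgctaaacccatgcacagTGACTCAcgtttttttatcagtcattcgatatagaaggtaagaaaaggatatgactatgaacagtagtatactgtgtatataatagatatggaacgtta

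A Leu3-type site, which is a pair of CCGG half-sites with 2 bases between them, was rarer. It lay in 15 of the 5487 promoters, or 0.273%, and 4 of those 15 were branched-chain members: ILV2 at chrXIII:483606-483635, ILV5 at chrXII:839611-839640, LEU1 at chrVII:478850-478879 and BAT1 at chrVIII:517375-517404. Their values are given with the branched-chain genes below, and capitals mark the site.
ILV2: ccggagcctgCCGGTACCGGcttggcttca
ILV5: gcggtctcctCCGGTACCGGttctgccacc
LEU1: aacgaaaattCCGGGACCGGcgaaatttgc
BAT1: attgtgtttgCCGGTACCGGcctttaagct

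Under exposure the enzyme genes were lower as a group than in controls while GCN4 itself showed no call. Of the 42 genes, 22 fell and 0 rose with La_EC10, where 10.1% of all tested genes were called lower and 10.2% higher (limma, adjusted p under 0.05 over all tested genes). With La_EC50, 17 fell and 2 rose, against 13% of all genes lower and 12.6% higher. With Yb_EC10, 19 fell and 0 rose, against 14% lower and 15.2% higher, and with Yb_EC50, 23 fell and 2 rose, against 20.2% lower and 20.6% higher. The falls were modest: the median log2 change of the 42 genes was -0.25 with La_EC10, -0.17 with La_EC50, -0.21 with Yb_EC10 and -0.23 with Yb_EC50, while the medians over all tested genes were 0.0061, 0.012, 0.0015 and -0.021. Across the 4 exposures 26 genes fell in at least 1, 2 rose in at least 1 and 14 were called in none. The matching shares of all tested genes over the 4 exposures were not taken, so no excess can be read from these counts. The 4 comparisons share the 3 control libraries. In a bulk culture a lower level in every cell and fewer cells that express the gene cannot be told apart.

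When every library was instead scaled to the same total, the median of all genes moved up to 0.080, 0.11, 0.072 and 0.11 in the same order of exposures, and that of the 42 genes was -0.17, -0.066, -0.14 and -0.094. With that scaling 18, 13, 15 and 12 of the 42 were lower, where 5.59, 7.47, 8.16 and 8.48% of all tested genes were, and 1, 4, 0 and 4 were higher, where 13.8, 21.5, 19.1 and 31.5% were. Leaving out Yb_EC50 library 4 also left 12 genes lower with Yb_EC50, and leaving out control library 3 or Yb_EC10 library 9 left 12 lower with Yb_EC10.

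**Figure D1:**
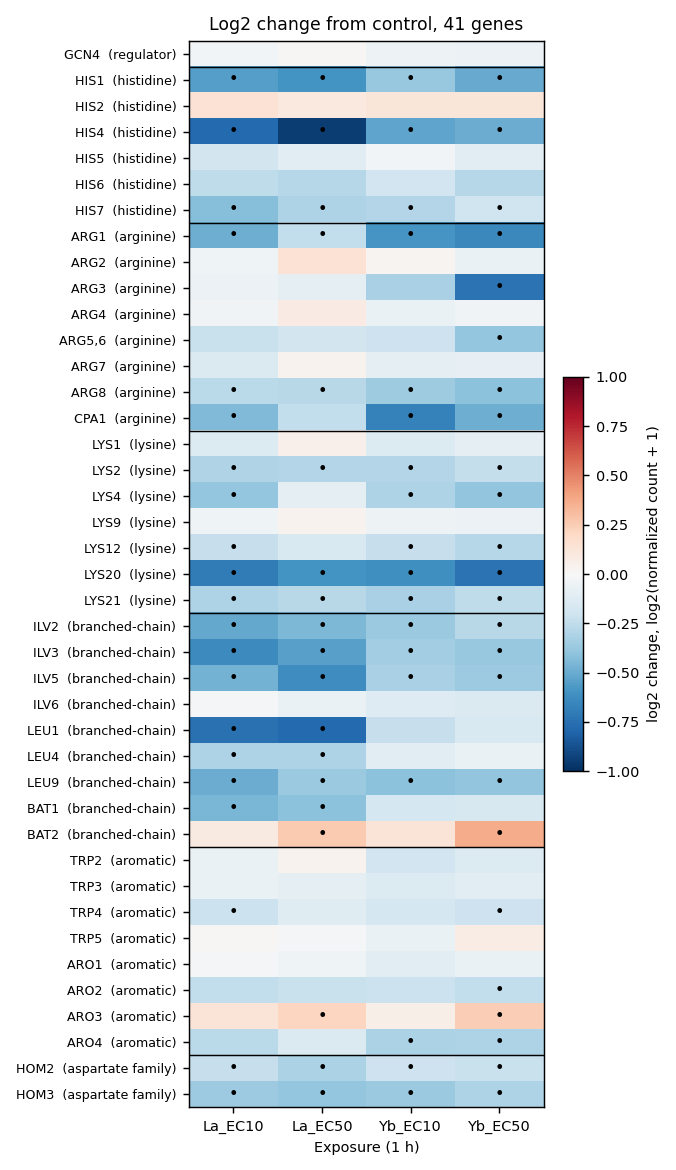
Log2 change from control, on the log2(normalized count + 1) scale, of 41 genes (rows, grouped by pathway) in the 4 exposures (columns); blue is lower, red is higher, and a dot marks adjusted p under 0.05. Most histidine, lysine, branched-chain and aspartate family rows are blue across the 4 columns, GCN4 is near white, and BAT2 and ARO3 are the 2 genes with dots on red.

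GCN4 (YEL009C, chrV:138918-139763, minus strand) did not change detectably. Control libraries held 6219, 6825 and 6636 normalized counts, La_EC10 libraries 6167, 6923 and 6251 and La_EC50 libraries 6396, 6797 and 6589. With Yb_EC10 the values were 5679, 6865 and 6506, and with Yb_EC50 5966, 6496 and 6392. The groups overlapped throughout, and library 7 of Yb_EC10 was the lowest of the 15. The log2 changes were -0.026, 0.0081, -0.05 and -0.062 in the order La_EC10, La_EC50, Yb_EC10 and Yb_EC50, with 95% intervals of -0.19 to 0.14, -0.16 to 0.17, -0.22 to 0.11 and -0.23 to 0.10. Per kilobase of coding sequence GCN4 was among the most abundant of the 42 in controls, at 7754 normalized counts, between ILV5 at 10015 and HIS1 at 4728; ARG2, at 156, was the lowest.

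Genes that control Gcn4 synthesis were also looked at. Of 13 such genes, which include the kinase gene GCN2 and the subunits of eIF2 and of its exchange factor eIF2B, 3 fell with La_EC10, 2 with La_EC50, 5 with Yb_EC10 and 5 with Yb_EC50, and 0 rose in any, beside 10.1, 13, 14 and 20.2% of all tested genes lower. The eIF2B subunit gene GCD2 changed by -0.43 ± 0.075 with Yb_EC50 (adjusted p 0.00037) and the eIF2B subunit gene GCD7 by -0.32 ± 0.077 with La_EC50 (adjusted p 0.00736). GCN2 was not called in any exposure, with log2 changes from -0.14 to -0.051.

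Of the 6 histidine genes 3 fell in each exposure, where 10.1, 13, 14 and 20.2% of all tested genes fell in the order La_EC10, La_EC50, Yb_EC10 and Yb_EC50. Their medians were -0.34, -0.29, -0.24 and -0.24, and at equal totals -0.27, -0.19, -0.17 and -0.10. The deepest fall among the 42 was that of HIS4 (YCL030C, chrIII:65934-68333, minus strand), whose multifunctional enzyme catalyses early steps of the pathway and its last one. Controls held 2401, 2468 and 2537 normalized counts, against 1452, 1405 and 1474 with La_EC10 and 1238, 1318 and 1274 with La_EC50. With Yb_EC10 the values were 1713, 1720.2 and 1714, and with Yb_EC50 1651, 1772 and 1822. No exposed library reached a control library, and both Yb groups lay above both La groups without overlap. Mean HIS4 changed by -41.5% and -48.3% with La_EC10 and La_EC50 and by -30.5% and -29.2% with Yb_EC10 and Yb_EC50 (log2 -0.77 ± 0.054, -0.95 ± 0.054, -0.52 ± 0.054 and -0.50 ± 0.054 SE; limma adjusted p 5.8e-08, 3.83e-09, 5.19e-06 and 3.56e-06).

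HIS1 (YER055C, chrV:264892-265785, minus strand), which encodes the ATP phosphoribosyltransferase that starts the pathway, was tight in controls at 4196, 4235 and 4250.1. La_EC10 libraries held 2818, 3108 and 2744 and La_EC50 libraries 2735, 2677 and 2969. Yb_EC10 libraries held 3045, 3538 and 3164 and Yb_EC50 libraries 2817, 3069 and 3086, again all below controls. Its log2 changes were -0.55 ± 0.071, -0.60 ± 0.071, -0.38 ± 0.071 and -0.50 ± 0.071 with La_EC10, La_EC50, Yb_EC10 and Yb_EC50 (adjusted p 5.11e-05, 1.6e-05, 0.00115 and 6.05e-05).

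HIS7 (YBR248C, chrII:714807-716465, minus strand) encodes the amidotransferase and cyclase at the middle of the pathway. It went from 833, 859 and 916 in controls to 637, 694 and 608 with La_EC10 and 683, 745 and 683 with La_EC50. With Yb_EC10 it stood at 663, 775 and 696 and with Yb_EC50 at 733, 749 and 793, without overlap with controls. The log2 changes were -0.43, -0.30, -0.29 and -0.20; the last, with adjusted p 0.0408, was lost at equal totals and without control library 2 or 3 or Yb_EC50 library 4 or 5. The other 3 histidine genes, the isomerase gene HIS6, the aminotransferase gene HIS5 and the phosphatase gene HIS2, passed the test in no exposure, with log2 changes from -0.28 in HIS6 to 0.15 in HIS2. HIS3, the dehydratase gene that is partly deleted in this strain and is no member, still gave reads from what remains of it, at a mean of 488 in controls and 382 to 408 in the exposed groups, and was called lower in all of these but La_EC50.

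Branched-chain genes included falls in every exposure. Of its 9 genes, 7 fell with each La concentration and 4 with each Yb concentration, 1 (BAT2) rose with La_EC50 and with Yb_EC50, and the median log2 change was -0.47 and -0.41 with La_EC10 and La_EC50 against -0.23 and -0.16 with Yb_EC10 and Yb_EC50. Of all tested genes 10.1, 13, 14 and 20.2% were called lower in these exposures. Those called higher were 12.6% with La_EC50 and 20.6% with Yb_EC50, so the 1 that rose was no larger a share. At equal totals the branched-chain medians were -0.40, -0.31, -0.16 and -0.027, with 7, 6, 3 and 2 genes lower. With that scaling 5.59, 7.47, 8.16 and 8.48% of all tested genes were lower. LEU1 (YGL009C, chrVII:476313-478652, minus strand) encodes isopropylmalate isomerase, an iron-sulfur enzyme, and was among the genes with the largest La changes. Controls held 2354, 2445 and 2665 normalized counts, La_EC10 libraries 1341, 1783 and 1356 and La_EC50 libraries 1435, 1434 and 1474. Yb_EC10 libraries held 1886, 2474 and 2035 and Yb_EC50 libraries 2016, 2259.7 and 2436. All La libraries were below all controls and all Yb libraries, while both Yb groups overlapped controls. The log2 changes were -0.75 ± 0.11 and -0.78 ± 0.11 with La_EC10 and La_EC50 (adjusted p 0.000233 and 0.000113) and -0.23 ± 0.11 and -0.16 ± 0.11 with Yb_EC10 and Yb_EC50 (adjusted p 0.132 and 0.282). The Yb_EC10 value passed the threshold when library 8 was left out.

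ILV3 (YJR016C, chrX:464451-466208, minus strand), the gene of dihydroxyacid dehydratase, another iron-sulfur enzyme, held 3505, 3887 and 4130.0 in controls. It was at 2232, 2916 and 2300.0 with La_EC10 and 2575, 2677 and 2655 with La_EC50, below every control. It was at 2588, 3655 and 2863 with Yb_EC10, where library 8 lay within the control range, and at 2546, 3163 and 3174 with Yb_EC50, below it. In order, the log2 changes were -0.64 ± 0.13, -0.54 ± 0.13, -0.35 ± 0.13 and -0.38 ± 0.13; both Yb calls were lost at equal totals and without control library 2 or 3, the Yb_EC10 call also without library 7 or 9, and the Yb_EC50 call without library 4.

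ILV5 (YLR355C, chrXII:838066-839253, minus strand) encodes acetohydroxyacid reductoisomerase, a mitochondrial enzyme of isoleucine, valine and leucine synthesis. Its control libraries held 10854, 11947 and 12894, La_EC10 libraries 7854, 9672 and 8280.4 and La_EC50 libraries 7514, 7943 and 7747. Yb_EC10 libraries held 8824, 10412 and 9233 and Yb_EC50 libraries 8344, 9617 and 9789, and no exposed library reached the controls. Against controls the log2 changes were -0.47 ± 0.096, -0.62 ± 0.096, -0.33 ± 0.096 and -0.36 ± 0.096, and the Yb_EC10 call was lost without control library 2 or 3 or Yb_EC10 library 7 or 9.

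ILV2, the catalytic subunit gene of acetolactate synthase, changed by -0.51, -0.45, -0.37 and -0.27 in the same order and fell in all 4 comparisons. Its Yb_EC50 call was lost at equal totals and without control library 2 or 3 or Yb_EC50 library 4, and its Yb_EC10 call without control library 3. Its regulatory subunit gene ILV6 passed the test in none, with log2 changes from -0.14 to -0.023. The isopropylmalate synthase genes LEU4 and LEU9 and the aminotransferase genes BAT1 and BAT2 are described with the isoenzyme pairs. All 4 genes with the Leu3-type site, ILV2, ILV5, LEU1 and BAT1, fell with La_EC10 and with La_EC50, at medians of -0.49 and -0.53. With Yb_EC10 and with Yb_EC50, 2 of the 4, ILV2 and ILV5, fell, and the medians of the 4 were -0.28 and -0.22. The shares of all tested genes called lower were 10.1, 13, 14 and 20.2% in the order of exposures. ILV3, LEU4 and LEU9, which lack the site, also fell with both La concentrations, and LEU4 fell with neither Yb concentration. The share called among all tested genes with the site was not taken. The motif is a description of the sequence and no measure of Leu3 binding.

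**Figure D2:**
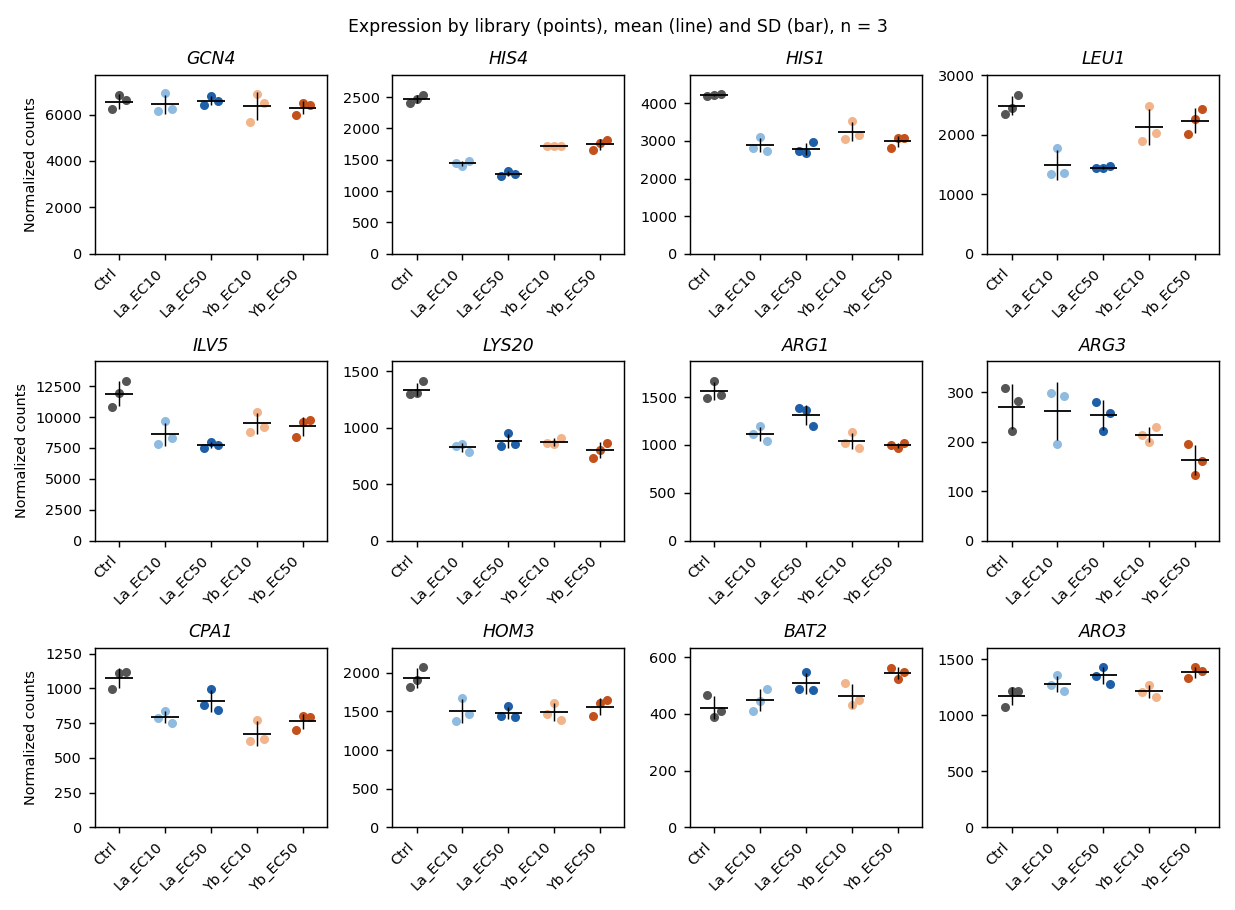
Normalized counts of 12 genes in each of the 15 libraries (points), with the mean (line) and SD (bar) of the 3 libraries of each group; each vertical axis starts at 0. HIS4 separates into controls, Yb and La without overlap, LEU1 is below all control and Yb libraries in the La groups, ARG3 is lowest with Yb_EC50, and GCN4 overlaps in all groups.

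Of the 7 lysine genes 5 fell with La_EC10, 3 with La_EC50, 5 with Yb_EC10 and 5 with Yb_EC50, beside 10.1, 13, 14 and 20.2% of all tested genes. Their medians were -0.30, -0.15, -0.30 and -0.25, and at equal totals -0.23, -0.052, -0.23 and -0.12, with 4, 2, 3 and 2 genes lower. The shares of all tested genes lower at equal totals were 5.59, 7.47, 8.16 and 8.48%. LYS20 (YDL182W, chrIV:133437-134723, plus strand), a gene of homocitrate synthase, the enzyme that commits carbon to lysine, showed the largest changes among them. Controls held 1295, 1306 and 1407, La_EC10 libraries 838, 856 and 780.5 and La_EC50 libraries 839.6, 954 and 853. Yb_EC10 libraries held 859, 849.9 and 909.7 and Yb_EC50 libraries 734, 802 and 867, all below controls. Its log2 changes were -0.70 ± 0.072, -0.60 ± 0.072, -0.61 ± 0.072 and -0.74 ± 0.072 (adjusted p 5.16e-06, 1.85e-05, 2.14e-05 and 1.24e-06), and its 500-base promoter window held neither TGACTC nor a Lys14-type TCCNNNGGA, which lay in 7 of the 42 windows against 6.07% of all.

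The second homocitrate synthase gene, LYS21 (YDL131W, chrIV:227393-228715, plus strand), held 1224, 1362 and 1422 in controls, 1031, 1240.2 and 976 with La_EC10 and 1122, 1138 and 1046 with La_EC50. It held 1015, 1135 and 1053 with Yb_EC10 and 1127, 1126 and 1109 with Yb_EC50. A La_EC10 library, number 14, reached into the control range. Log2 changes were -0.31, -0.28, -0.32 and -0.25; all but the Yb_EC10 call were lost without control library 2 or 3, those for La_EC50 and Yb_EC50 also at equal totals, and each also without single libraries of its own exposed group.

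LYS4 (YDR234W, chrIV:931129-933210, plus strand) encodes homoaconitase, an iron-sulfur enzyme of the next steps. Controls held 748, 831 and 838, La_EC10 libraries 608, 681 and 561 and La_EC50 libraries 766, 776 and 731. Yb_EC10 libraries held 593, 704 and 654 and Yb_EC50 libraries 518, 639 and 696. La_EC50 overlapped controls and the other 3 exposures did not. In log2 terms it changed by -0.39 ± 0.10, -0.087 ± 0.10, -0.31 ± 0.10 and -0.39 ± 0.10; the La_EC10 and Yb_EC10 calls were lost without control library 2 or 3 and without library 13 or 15 for La and 7 or 9 for Yb, and the Yb_EC10 call also at equal totals. LYS2, the aminoadipate reductase gene, changed by -0.24 to -0.30 and fell in all 4 comparisons, though its Yb_EC50 call was lost at equal totals and without library 4. LYS12, the homoisocitrate dehydrogenase gene, fell in all but La_EC50, and each of these calls was lost at equal totals, that for La_EC10 also without control library 2 or 3 or La_EC10 library 13 or 15 and in a fit of the 2 groups alone, and that for Yb_EC10 without library 9. The saccharopine dehydrogenase genes LYS1 and LYS9, which complete the pathway, passed the test in none, with log2 changes from -0.14 to 0.051.

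Arginine synthesis showed 4 of 9 genes lower with La_EC10, 2 with La_EC50, 4 with Yb_EC10 and 6 with Yb_EC50 and medians of -0.22, -0.13, -0.33 and -0.41, beside 10.1, 13, 14 and 20.2% of all tested genes lower. At equal totals the arginine medians were -0.15, -0.029, -0.25 and -0.28, with 3, 0, 4 and 6 genes lower and 0, 2, 0 and 0 higher. With that scaling 5.59, 7.47, 8.16 and 8.48% of all tested genes were lower and 13.8, 21.5, 19.1 and 31.5% higher. ARG1 (YOL058W, chrXV:219211-220473, plus strand), the argininosuccinate synthetase gene, held 1493, 1669 and 1522 in controls. It held 1113, 1194 and 1041 with La_EC10 and 1382, 1369 and 1198 with La_EC50, then 1021, 1132 and 965 with Yb_EC10 and 996, 970.1 and 1018 with Yb_EC50. All exposed libraries were below all controls, and La_EC50 lay above Yb_EC50 without overlap. This came to log2 changes of -0.48 ± 0.077, -0.25 ± 0.077, -0.59 ± 0.077 and -0.65 ± 0.077 (adjusted p 0.000396, 0.0272, 5.32e-05 and 9.35e-06), of which the La_EC50 call was lost at equal totals and without control library 2 or 3 or La_EC50 library 12.

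ARG3 (YJL088W, chrX:268799-269815, plus strand) encodes ornithine carbamoyltransferase and varied between libraries. Controls held 309, 221 and 283, La_EC10 libraries 298, 195 and 293 and La_EC50 libraries 281, 223 and 259. Yb_EC10 libraries held 214, 199.6 and 230.4 and Yb_EC50 libraries 195, 133 and 160.1. Yb_EC50 alone was clear of the control range. Its log2 change there was -0.73 ± 0.17 (adjusted p 0.0032), against -0.061 ± 0.17, -0.086 ± 0.17 and -0.33 ± 0.17 with La_EC10, La_EC50 and Yb_EC10, none of which passed.

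CPA1 (YOR303W, chrXV:882899-884134, plus strand) is the small subunit gene of the arginine-specific carbamoyl phosphate synthetase, and its mRNA carries an upstream reading frame through which arginine lowers its translation. Controls held 996, 1111 and 1119, La_EC10 libraries 789.5, 838 and 749.7 and La_EC50 libraries 884, 999 and 842. Yb_EC10 libraries held 619, 776 and 633 and Yb_EC50 libraries 703, 799 and 793. La_EC50 touched the control range in library 11, and the other exposures stayed below it. Its change on the log2 scale was -0.44 ± 0.092, -0.24 ± 0.092, -0.67 ± 0.092 and -0.49 ± 0.092 (adjusted p 0.00387, 0.0632, 7.63e-05 and 0.000714), and the La_EC50 value passed with edgeR, in a fit of those 2 groups alone, and without control library 1 or La_EC50 library 11.

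ARG8, the acetylornithine aminotransferase gene, changed by -0.27 to -0.41 and fell in all 4 comparisons, though both La calls were lost without any single control library and at equal totals. ARG5,6, whose product is processed into acetylglutamate kinase and its reductase, was called lower with Yb_EC50 (-0.39 ± 0.084, adjusted p 0.00216). ARG2, ARG7 and ARG4, genes of acetylglutamate synthase, ornithine acetyltransferase and argininosuccinate lyase, passed in none, with log2 changes from -0.14 in ARG7 to 0.14 in ARG2. All 3 have the TGACTC core, as the genes that fell do.

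Of the 8 aromatic genes, 1 fell with La_EC10, 0 with La_EC50, 1 with Yb_EC10 and 3 with Yb_EC50, 1 (ARO3) rose with La_EC50 and with Yb_EC50, and the medians lay between -0.16 and -0.067. Beside 10.1, 13, 14 and 20.2% of all tested genes lower, the counts with La_EC10 and Yb_EC10 were near the background. The 1 that rose was no larger a share than the 12.6 and 20.6% of all tested genes higher with La_EC50 and Yb_EC50. At equal totals the medians were 0.0068, 0.033, -0.088 and 0.014 in the order La_EC10, La_EC50, Yb_EC10 and Yb_EC50, so the direction of 3 of them turned with the scaling. ARO4 (YBR249C, chrII:716882-717994, minus strand), the gene of the tyrosine-inhibited first enzyme of the shikimate pathway, held 2490.3, 2859 and 3051 in controls, 2198, 2612 and 2172 with La_EC10 and 2450.0, 2583 and 2524 with La_EC50. It held 2055, 2505 and 2169 with Yb_EC10 and 1984, 2363 and 2434 with Yb_EC50, and Yb_EC50 alone did not overlap controls. The log2 changes with Yb_EC10 and Yb_EC50 were -0.32 ± 0.10 and -0.31 ± 0.10 (adjusted p 0.0265 and 0.023), and both were lost without control library 2 or 3, the latter also at equal totals.

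ARO3 (YDR035W, chrIV:521816-522928, plus strand), the phenylalanine-inhibited isoenzyme gene, held 1075, 1211 and 1215 in controls, 1265, 1357 and 1213 with La_EC10 and 1350.2, 1434 and 1280.0 with La_EC50. It held 1203, 1272 and 1160.4 with Yb_EC10 and 1332, 1427 and 1390.3 with Yb_EC50. Both EC50 groups were above all controls, with log2 changes of 0.22 ± 0.068 and 0.25 ± 0.068 (adjusted p 0.0292 and 0.0097). The La_EC50 call was lost without control library 1 or La_EC50 library 10 or 11.

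ARO2 (YGL148W, chrVII:226399-227529, plus strand), the chorismate synthase gene, held 1894, 2065 and 2049 in controls, 1610.2, 1951 and 1539 with La_EC10 and 1723, 1758 and 1676 with La_EC50. It held 1622, 1906 and 1646 with Yb_EC10 and 1590.2, 1630.2 and 1845 with Yb_EC50. The changes were close, from -0.25 to -0.22, and the one that passed, with Yb_EC50 (adjusted p 0.0367), was lost at equal totals and without control library 2 or 3 or Yb_EC50 library 4 or 5. TRP4, the anthranilate phosphoribosyltransferase gene, changed by -0.22 with La_EC10 and -0.21 with Yb_EC50, calls that were likewise lost at equal totals. The pentafunctional ARO1, the anthranilate synthase genes TRP2 and TRP3 and the tryptophan synthase gene TRP5 passed in none, with log2 changes from -0.19 in TRP2 to 0.071 in TRP5.

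Both aspartate family genes, which lead to threonine, methionine and isoleucine, fell in all 4 comparisons. Of all tested genes 10.1, 13, 14 and 20.2% were called lower in these. At equal totals 1, 2, 1 and 0 of the pair were lower, where 5.59, 7.47, 8.16 and 8.48% of all tested genes were. HOM3 (YER052C, chrV:256375-257958, minus strand), the aspartate kinase gene, held 1814, 1906 and 2069.9 in controls, 1369, 1677 and 1471 with La_EC10 and 1442, 1566 and 1429.5 with La_EC50. It held 1468, 1615 and 1389.7 with Yb_EC10 and 1435, 1602 and 1644 with Yb_EC50, with no overlap with controls. Its log2 changes were -0.36 ± 0.084, -0.38 ± 0.084, -0.37 ± 0.084 and -0.31 ± 0.084, and the Yb_EC50 call was lost at equal totals and without library 4.

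HOM2 (YDR158W, chrIV:770357-771454, plus strand), the aspartate semialdehyde dehydrogenase gene, held 3328, 3236 and 3464 in controls, 2676, 2996 and 2890.4 with La_EC10 and 2553, 2796 and 2718 with La_EC50. It held 2844, 2977 and 2859 with Yb_EC10 and 2723, 2881 and 3013 with Yb_EC50, again without overlap with controls. On the log2 scale it changed by -0.23, -0.31, -0.21 and -0.22, and all but the La_EC50 call were lost at equal totals.

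Within a pathway the libraries of a group did not always lie close. The median deviation of the 9 branched-chain genes from their control means was -0.60, -0.30 and -0.52 in the La_EC10 libraries and -0.40, -0.068 and -0.29 in the Yb_EC10 libraries, so libraries 14 and 8 lay nearest to controls. It was -0.47, -0.41 and -0.35 with La_EC50 and -0.30, -0.19 and -0.083 with Yb_EC50. Libraries 14 and 8 also held the highest GCN4 value of their groups, and what set them apart was not tested. For arginine the deviations were -0.064, -0.10 and -0.19 with La_EC50 and -0.46, -0.46 and -0.35 with Yb_EC50, without overlap. The branched-chain deviations of these 2 groups did not overlap either, in the opposite direction. At EC10 the arginine deviations overlapped, at -0.13, -0.28 and -0.13 with La_EC10 and -0.33, -0.31 and -0.24 with Yb_EC10.

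**Figure D3:**
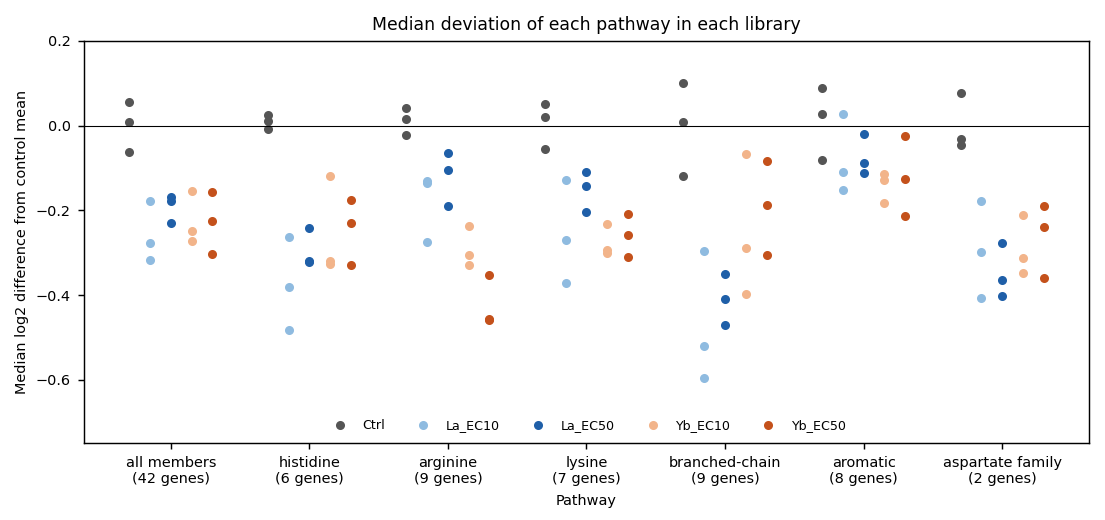
Median log2 difference from the control mean over the genes of each pathway (horizontal axis, with the number of genes), in each of the 15 libraries (points, coloured by group). The exposed points of the histidine, arginine, lysine and aspartate family genes lie below all control points of their pathways, as do the branched-chain points of the 2 La groups, and the aromatic points of all groups lie between -0.21 and 0.089.

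The metals were then compared directly. At the EC10 concentrations 2 of the 42 genes differed, no larger a share than the 5.89% of all tested genes. Both were lower with La: HIS4 by -0.25 ± 0.054 (adjusted p 0.0105) and LEU1 by -0.52 ± 0.11 (adjusted p 0.0107). Neither passed in a fit of the 2 groups alone, and LEU1 did not pass without La_EC10 library 13 or 15. At the EC50 concentrations 7 of 42 differed, against 22% of all tested genes, which is no larger a share than the background. LEU1 (-0.62 ± 0.11, adjusted p 0.00097), HIS4 (-0.45 ± 0.054, adjusted p 2.57e-05) and LEU4 (-0.24 ± 0.06, adjusted p 0.00969) were lower with La.

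Among those lower with Yb were the arginine genes ARG3 (0.65 ± 0.17, adjusted p 0.0121) and ARG1 (0.40 ± 0.077, adjusted p 0.00162), given as La minus Yb. The lysine gene LYS4 was another (0.30 ± 0.10, adjusted p 0.0415). ARG3 lost its call without La_EC50 library 10 or Yb_EC50 library 5, and LYS4 without any one of libraries 4, 5, 10, 11 or 12. LEU1, HIS4, LEU4 and ARG1 passed under each alternative run on this comparison.

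**Figure D4:**
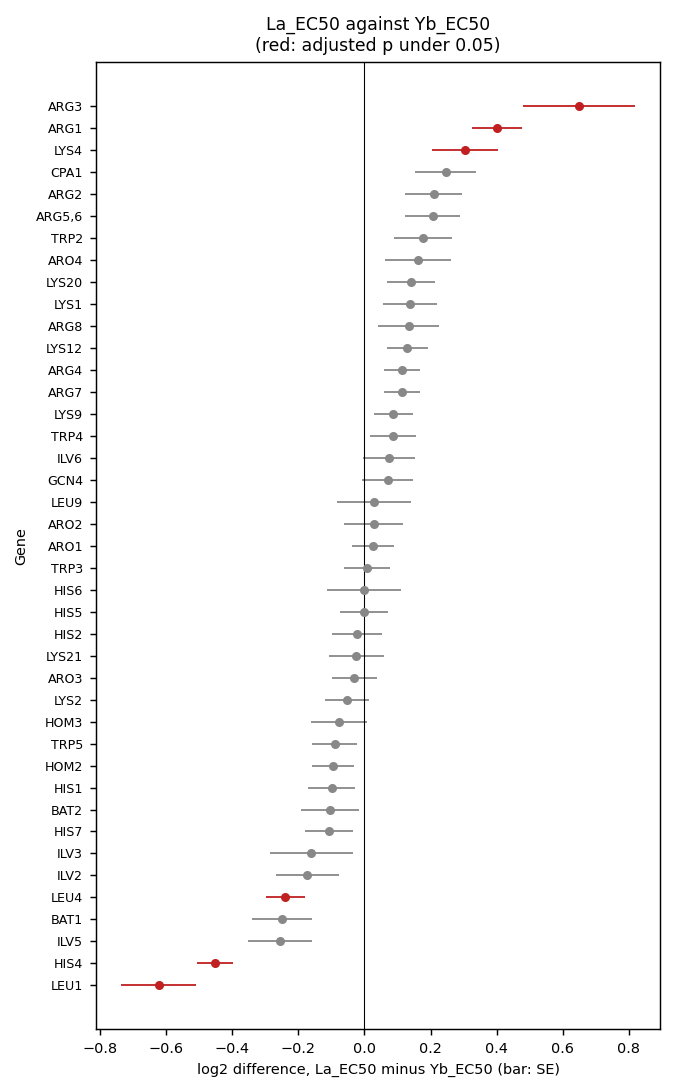
Log2 difference between La_EC50 and Yb_EC50 (La minus Yb, on the log2(normalized count + 1) scale) for 41 genes, ordered by size, with SE as bars and genes of adjusted p under 0.05 in red. LEU1, HIS4 and LEU4 are the red points below 0, and ARG3, ARG1 and LYS4 those above 0.

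The step from EC10 to EC50 changed 0 of the 42 genes with La and 0 with Yb in the limma fit, where 1.78% and 1.1% of all tested genes were called, and the difference between these steps changed 0, against 3.25%. At an unadjusted p under 0.05 the limma counts were 7, 4 and 5. The share of all tested genes at that threshold was not taken, so these counts cannot be called an excess. With edgeR, 0 were called in each at adjusted p under 0.05. At equal totals ARO3 was called between the Yb concentrations, and BAT2 was called there without Yb_EC10 library 7. The concentrations differ by more for La, from 50 to 160 µM, than for Yb, from 6 to 8 µM. A test over all 5 groups at once called 25 of the 42 genes, against 43.1% of all tested genes.

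Homocitrate synthase, isopropylmalate synthase, the branched-chain aminotransferase and the first shikimate enzyme are each shared between a pair of isoenzyme genes. Their ratio was formed per coding base in each library and is given as a description, without a test. LYS20 over LYS21 was 1.09, 0.985 and 1.02 in controls, 0.835, 0.710 and 0.822 with La_EC10 and 0.769, 0.862 and 0.838 with La_EC50. It was 0.870, 0.770 and 0.888 with Yb_EC10 and 0.669, 0.733 and 0.804 with Yb_EC50, so all exposed libraries had less LYS20 relative to LYS21 than any control. These 2 coding sequences are 91.9% identical over their aligned bases, with an identical run of 278 bases, so reads could be assigned to either and their levels are uncertain.

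LEU4 encodes the main isopropylmalate synthase and LEU9 the minor one, and their coding sequences are 81.2% identical. LEU4 held 1840.0, 2041 and 1927 normalized counts in controls, 1516, 1587 and 1592 with La_EC10, 1567, 1558 and 1564 with La_EC50, 1757, 1940.2 and 1688 with Yb_EC10 and 1821, 1844 and 1869 with Yb_EC50. It was below controls in both La groups and overlapped them in both Yb groups, with log2 changes of -0.31 ± 0.06, -0.31 ± 0.06, -0.11 ± 0.06 and -0.068 ± 0.06. LEU9 was lower in all 4 comparisons, at -0.49 ± 0.11, -0.37 ± 0.11, -0.41 ± 0.11 and -0.40 ± 0.11, though the La_EC50 and Yb_EC10 calls were lost without control library 2 or 3, the La_EC50 call also at equal totals, and the Yb_EC50 call without library 4. The mean ratio of LEU4 to LEU9 was 1.61 in controls and 1.84, 1.67, 1.98 and 2.03 with La_EC10, La_EC50, Yb_EC10 and Yb_EC50.

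BAT1 encodes the mitochondrial branched-chain aminotransferase, which is used in synthesis, and BAT2 the cytosolic one, which is used in breakdown. BAT1 fell with La, from 3127 ± 281 in controls to 2285 ± 272 and 2347 ± 97.5 (SD, n = 3) with La_EC10 and La_EC50, and held 2769 ± 155 and 2793 ± 233 with Yb_EC10 and Yb_EC50, which did not pass. BAT2 was with ARO3 among the 2 members that rose. Controls held 466, 388 and 412, La_EC50 libraries 487, 548 and 486 and Yb_EC50 libraries 563, 523 and 547, and both EC50 groups lay above all controls (log2 0.27 ± 0.087 and 0.37 ± 0.087, adjusted p 0.0352 and 0.00382). The La_EC50 call for BAT2 was lost without any one of control libraries 2 and 3 and La_EC50 libraries 10 to 12. The mean ratio of BAT1 to BAT2 was 7.14 in controls and 4.89, 4.45, 5.77 and 4.92 with La_EC10, La_EC50, Yb_EC10 and Yb_EC50. Control libraries ran from 6.01 to 8.02, and Yb_EC10 library 8, at 6.56, lay within that range. Every other exposed library lay below it.

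ARO3 over ARO4 was 0.431, 0.424 and 0.398 in controls, 0.576, 0.519 and 0.558 with La_EC10 and 0.551, 0.555 and 0.507 with La_EC50. It was 0.585, 0.508 and 0.535 with Yb_EC10 and 0.671, 0.604 and 0.571 with Yb_EC50, above controls in each exposed library. These coding sequences are 69.8% identical, and those of BAT1 and BAT2 72.5%, with no identical run over 17 bases in either pair.

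**Figure D5:**
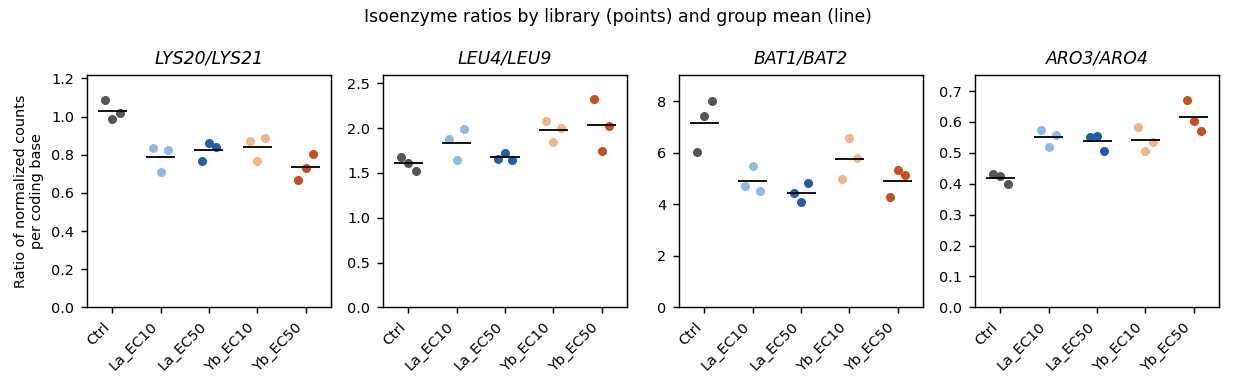
Ratio of normalized counts per coding base for the 4 isoenzyme pairs in each of the 15 libraries (points) with the mean of each group (line); vertical axes start at 0. LYS20/LYS21 is lower and ARO3/ARO4 higher in every exposed library than in any control, and LEU4/LEU9 overlaps between controls and the La groups and lies above controls in the Yb groups. BAT1/BAT2 is below controls in every exposed library but Yb_EC10 library 8.

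Genes around these pathways were called in both directions. Of 12 remaining pathway enzymes, 4 fell with La_EC10, 2 with La_EC50, 5 with Yb_EC10 and 3 with Yb_EC50, while 0, 1, 1 and 1 rose, beside 10.1, 13, 14 and 20.2% of all tested genes lower and 10.2, 12.6, 15.2 and 20.6% higher. ARO9, an aromatic aminotransferase gene used mainly in breakdown, changed by -0.63 ± 0.089 with La_EC10 (adjusted p 0.000134), and ARO7, the chorismate mutase gene, by -0.37 ± 0.073 with Yb_EC50 (adjusted p 0.00118). Of 9 other regulators of these pathways or of nitrogen use, 1, 2, 1 and 1 fell and 0, 0, 0 and 1 rose in the same order, which is near those shares. BAS1, whose product activates HIS4 and purine genes, changed by -0.50 ± 0.12 with La_EC50 (adjusted p 0.00816), and ARG81, an arginine sensor gene, by -0.39 ± 0.083 with Yb_EC50 (adjusted p 0.00194). Of the 2 arginine breakdown genes, 0, 1, 1 and 2 fell and 0 rose: CAR1, for arginase, changed by -0.45 ± 0.12 with Yb_EC10 (adjusted p 0.0117) and CAR2, for ornithine aminotransferase, by -0.50 ± 0.13 with La_EC50 (adjusted p 0.0123).

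Of 10 genes of the glutamate, glutamine, proline, asparagine and alanine group, 1, 1, 2 and 1 fell and 1, 1, 2 and 4 rose with La_EC10, La_EC50, Yb_EC10 and Yb_EC50, where the shares of all tested genes were 10.1, 13, 14 and 20.2% lower and 10.2, 12.6, 15.2 and 20.6% higher, so the counts were near the background but for the 4 that rose with Yb_EC50. GLN1, for glutamine synthetase, rose in each: controls held 2550.4, 2860.0 and 3094 normalized counts, and the means with the 4 exposures were 4696 ± 752, 4724 ± 523, 3762 ± 188 and 5723 ± 234 (SD, n = 3). Its log2 changes were 0.72 ± 0.11, 0.74 ± 0.11, 0.41 ± 0.11 and 1.02 ± 0.11 (adjusted p 0.00018, 0.00011, 0.00917 and 2.28e-06). GDH1, for the glutamate dehydrogenase that takes up ammonium, went in opposite directions with the metals at EC50, by -0.26 ± 0.071 with La_EC50 and 0.61 ± 0.071 with Yb_EC50, and their difference was -0.87 ± 0.071 (adjusted p 5.72e-07). Many synthesis pathways draw their amino groups from the glutamate and glutamine that these enzymes make.

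Set against the promoter sequences, the 27 genes with TGACTCA included 16, 14, 14 and 16 called lower in the order La_EC10, La_EC50, Yb_EC10 and Yb_EC50, and 0 called higher. The 15 without it included 6, 3, 5 and 7 called lower and 0, 2, 0 and 2 called higher. In the same order, the shares of all tested genes were 10.1, 13, 14 and 20.2% lower and 10.2, 12.6, 15.2 and 20.6% higher. The share called among all tested genes with the site was not taken, so these counts cannot be tied to the motif. The medians were -0.30, -0.25, -0.29 and -0.24 with the site and -0.22, -0.087, -0.18 and -0.21 without it. HIS6, ARG2, LYS12 and TRP4 have the core TGACTC but not the full site. Split by the core, the medians were -0.27, -0.24, -0.23 and -0.24 for the 31 genes with it, of which 18, 14, 15 and 18 were called lower. For the 11 genes without it, which include GCN4, they were -0.040, -0.018, -0.068 and -0.062. Of these 11, 4, 3, 4 and 5 were still called lower, LYS20 among them, and 0, 2, 0 and 2 higher. The share called among all tested genes with the core was not taken either. Neither split was tested. ARG4 has the site at chrVIII:141563-141592, shown here with the site in capitals, and passed in no exposure, while LYS20 has none and was called lower in each. A match of letters says nothing of whether Gcn4 was bound.
ARG4: tagtagatgaaTGACTCActttttggataa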

How the data were processed

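RNA sequencing counts were available for 15 libraries of total RNA, 3 in each of 5 groups. Per the submitters' processing notes the tools named were FastQC 0.67, TopHat2 2.1.1, HTSeq 0.6.1p1 and DESeq2 1.14.1 with genome build R64, and their order and settings are not stated in the material used here. Libraries were strand-specific per the labels' protocols, and the strand setting of the counting is not given. The deposited values are a signal: gene counts that the authors divided by 1 size factor per library, so that whole reads could be recovered for 100% of values within 0.01 read.

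From these values, log2(normalized count + 1) was tested with limma 3.58.1 (moderated, with trend; R 4.3.3) over all 15 libraries in 1 fit, for 5567 genes with a mean of at least 10, with 2-sided p-values adjusted by Benjamini-Hochberg over all of them and calls at 0.05. Fold changes are on that scale and understate those of low genes. The script was tested on simulated data. Alternatives were a pseudocount of 5, no filter on low values, equal library totals, edgeR 4.0.16 with TMM on recovered reads, only the groups compared, and each library left out in turn. Replicate pairs differed by more than sampling noise, with a chi-square per degree of freedom of 2.98 to 28.0, so none was merged. Nothing in the labels says whether libraries came from separate cultures, so p-values measure the spread between these libraries, which may be technical. With 3 libraries against 3 an exact permutation test could not go below 0.10 and was not used.

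Names and coordinates came from RefSeq's R64 annotation, which matched 5917 of 6600 systematic names, and all 42 members were single-exon coding genes with no annotated gene overlapping them. Protein sequences were not used here. Values are given library by library for GCN4 and, in each pathway, for at most 3 called members ranked by the size of their change; isoenzyme pairs are added, as are at most 2 called genes of each surrounding list. 1 member is counted but not reported on its own. Members and lists were chosen with earlier results of these data known.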

Additional observations from a re-analysis of the deposited data

How the results depend on the processing

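At equal library totals 1 member was higher with La_EC10 (ARO3), 4 with La_EC50 (ARO3, BAT2, ARG2 and ARG4) and 4 with Yb_EC50 (ARO3, BAT2, HIS2 and TRP5), against 0, 2 and 2 with the authors' scaling. The shares of all tested genes higher in these exposures were 13.8, 21.5 and 31.5% at equal totals, against 10.2, 12.6 and 20.6%. With Yb_EC50, 12 members were lower at equal totals, against 23, while the share of all tested genes lower went from 20.2% to 8.48%. Between the Yb concentrations 1 member, ARO3, differed at equal totals, against 0. In a fit of the groups compared, 0 members differed between La_EC10 and Yb_EC10, against 2. With single libraries left out, 0 to 1 were higher with La_EC50, 12 to 22 lower with Yb_EC10, 12 to 24 lower with Yb_EC50, 0 to 1 differed between the Yb concentrations and 1 to 3 between La_EC10 and Yb_EC10. The cause of these shifts was not tested. Over the same left-out libraries 16 to 24 members were lower with La_EC10, 13 to 17 with La_EC50, and 5 to 8 differed between La_EC50 and Yb_EC50.

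Of 94 called changes, 58 passed in every alternative and 0 changed sign; the pseudocount of 5 changed no call. No paired analysis was possible because the columns carry a running number and not the replicate numbers of the labels. At 5629666 reads or more a library, replicates differed by more than counting error.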
